A study of Mus musculus with 3 samples.

Results

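The mitochondrial genome of the mouse is a small circle that carries genes for subunits of the respiratory chain and for the RNAs needed to translate them inside the organelle. Its members here were all rows of the deposited gene table whose symbol starts with mt-. The rule found 37 of 46078 genes, with 13 protein genes, 2 ribosomal RNA (rRNA) genes and 22 transfer RNA (tRNA) genes. All 37 lie on chromosome M of GENCODE M21 (GRCm38, mm10), and the gene size in the table equals the annotated length for all 37.

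Both strands of this circle are transcribed into long precursors, which are cut mainly at the tRNAs that sit between the other genes. The nuclear-encoded RNA polymerase POLRMT makes them with the factors TFAM and TFB2M, and the LRPPRC-SLIRP complex stabilises the messenger RNAs. The heavy-strand precursor starts near mt-Rnr1 and holds both rRNAs and most messages, while the light-strand precursor holds mt-Nd6. Macrophages draw on the respiratory chain for ATP and as a source of reactive oxygen species.

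RNA was measured by paired-end sequencing in 3 libraries of RAW 264.7 cells, a macrophage line grown from a virus-induced mouse tumour. The control library carries that label, with no agent named for it. The HU library is from cells given 0.5 mM hydroxyurea, an inhibitor of ribonucleotide reductase, for 12 hours, and the HU+GNC library from cells given 0.5 mM hydroxyurea together with gold nanocages for the same time. All were grown with 10% serum and libraries were made from 1 µg of total RNA with an integrity number (RIN) above 7. The sources used here give no nanocage dose, and a library with nanocages but no HU was not analysed here. Each condition is 1 library, so no difference below has a replicate check and no p-value was computed. Intervals are exact 95% counting intervals, and they cover counting error only.

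The libraries held 14990564 counts in control, 20057329 with HU and 18644333 in HU+GNC. Of 10 macrophage markers, 8 had a mean of at least 1 FPKM (reads counted per kilobase of gene and scaled to library size), summing to between 2955 and 3202 FPKM. Of the markers of lymphocytes, granulocytes and mast cells, fibroblasts, dendritic cells and erythroid cells, 1 did so, the lymphocyte gene Ighm. The lymphocyte markers summed to 139.1 FPKM in control, 95.2 in HU and 97.3 in HU+GNC. In a bulk library, fewer cells with an RNA and less of that RNA per cell cannot be told apart.

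Reads were assigned to 16 of the 37 genes. These were the 13 protein genes, both rRNA genes and 1 tRNA gene, mt-Tp, which encodes the proline tRNA. The other 21 tRNA genes were at 0 counts in all 3 libraries, which allows up to 0.200 CPM (counts scaled to a library of 1000000) in control, 0.150 in HU and 0.161 in HU+GNC. tRNA genes are 59 to 75 bases long, and the reads were 150 bases. Of the 22, 20 have another gene within 5 bases on each side where the annotation has a neighbour. mt-Tp, at chrM:15356-15422 on the minus strand, borders mt-Tt on one side and has no annotated gene after it. mt-Tf, at chrM:1-68 on the plus strand, has no annotated gene before it, yet it had no reads. The part of gene length and neighbours in the zeros was not tested.

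The tRNA with reads is shown with its neighbour mt-Tt, which had none and is for threonine, and with mt-Tf, for phenylalanine, at the other edge of the gene map. They are the gene strands from GENCODE M21, 5′ to 3′, with the anticodon in capitals.
mt-Tp: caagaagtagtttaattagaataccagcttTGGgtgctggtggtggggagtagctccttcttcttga
mt-Tt: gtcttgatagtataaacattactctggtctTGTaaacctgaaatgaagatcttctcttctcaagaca
mt-Tf: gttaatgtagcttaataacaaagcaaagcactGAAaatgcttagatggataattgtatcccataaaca
Their lengths are 67, 67 and 68 bases, so mt-Tp does not stand out from the other 2 by size.

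mt-Tp had 654 reads in control, 964 in HU and 957 in HU+GNC. It was at 43.6, 48.1 and 51.3 CPM in that order, lowest in control. The ratio of HU to control was 1.10 (0.997 to 1.22), within counting error, and that of HU+GNC to control was 1.18 (1.06 to 1.30). Reads of an unprocessed precursor and of the mature tRNA are not separated by these counts. No source used here gives the strand setting of the counting, so reads of the opposite strand cannot be told apart from it.

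Among the protein genes, 7 were above 500 FPKM in every library and 6 were below 150 FPKM in every library. The first 7 are mt-Nd1, mt-Nd2, mt-Nd4, mt-Nd5, mt-Nd6, mt-Cytb and mt-Co1. The other 6 are mt-Co2, mt-Atp8, mt-Atp6, mt-Co3, mt-Nd3 and mt-Nd4l, which follow each other from chrM:7013-7696 (mt-Co2) to chrM:9877-10173 (mt-Nd4l). This split in level was seen after the values were known.

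mt-Co1, the catalytic core subunit of cytochrome c oxidase (complex IV), was the gene with the highest FPKM of the whole table in all 3 libraries. It was at 9637 FPKM in control, 9934 in HU and 10159 in HU+GNC. mt-Co2, which carries the copper centre that accepts electrons from cytochrome c in the same complex, was at 94.7, 108.7 and 85.6 FPKM. mt-Co3, a further core subunit of complex IV, was at 41.8, 41.6 and 37.9 FPKM. These 3 subunits are made for the same enzyme, and their counted levels lay far apart in every library.

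mt-Nd1, a membrane subunit of NADH dehydrogenase (complex I) near the ubiquinone site, was next in level, at 4579, 5010 and 5104 FPKM. mt-Cytb, the only mitochondrially encoded subunit of the cytochrome bc1 complex (complex III), followed, at 3465, 4050 and 4381 FPKM. mt-Nd2 came after it, at 2116, 2161 and 2213 FPKM. Then came mt-Nd5 at 1292, 1433 and 1546 FPKM and mt-Nd4 at 905.5, 1038 and 1094 FPKM. Nd2, Nd4 and Nd5 encode the antiporter-like subunits of the complex I membrane arm. Neighbours in this order of 6 genes were apart beyond counting error in each library.

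mt-Nd6, the complex I subunit encoded by the light strand, was at 621.1, 665.8 and 700.7 FPKM. The 12S rRNA gene mt-Rnr1 was at 649.1, 582.3 and 538.8 FPKM, and the 16S rRNA gene mt-Rnr2 at 345.8, 303.5 and 323.9 FPKM. In control the intervals of mt-Rnr1 and mt-Nd6 overlapped, so their order is not resolved there. In both libraries with HU mt-Nd6 was above mt-Rnr1.

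mt-Atp6, the proton channel subunit of ATP synthase (complex V), was at 37.2, 37.5 and 32.9 FPKM. In every library its interval overlapped that of mt-Co3. mt-Atp8, the small complex V subunit, was at 9.16, 9.78 and 12.1 FPKM on 28, 40 and 46 reads. The complex I subunit genes mt-Nd3, at 4.22, 4.15 and 3.54 FPKM on 22, 29 and 23 reads, and mt-Nd4l, at 4.49, 4.03 and 4.70 FPKM on 20, 24 and 26 reads, were lowest. Their intervals overlapped each other in each library. For these genes, with few reads, differences between libraries are poorly resolved.

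**Figure D1:**
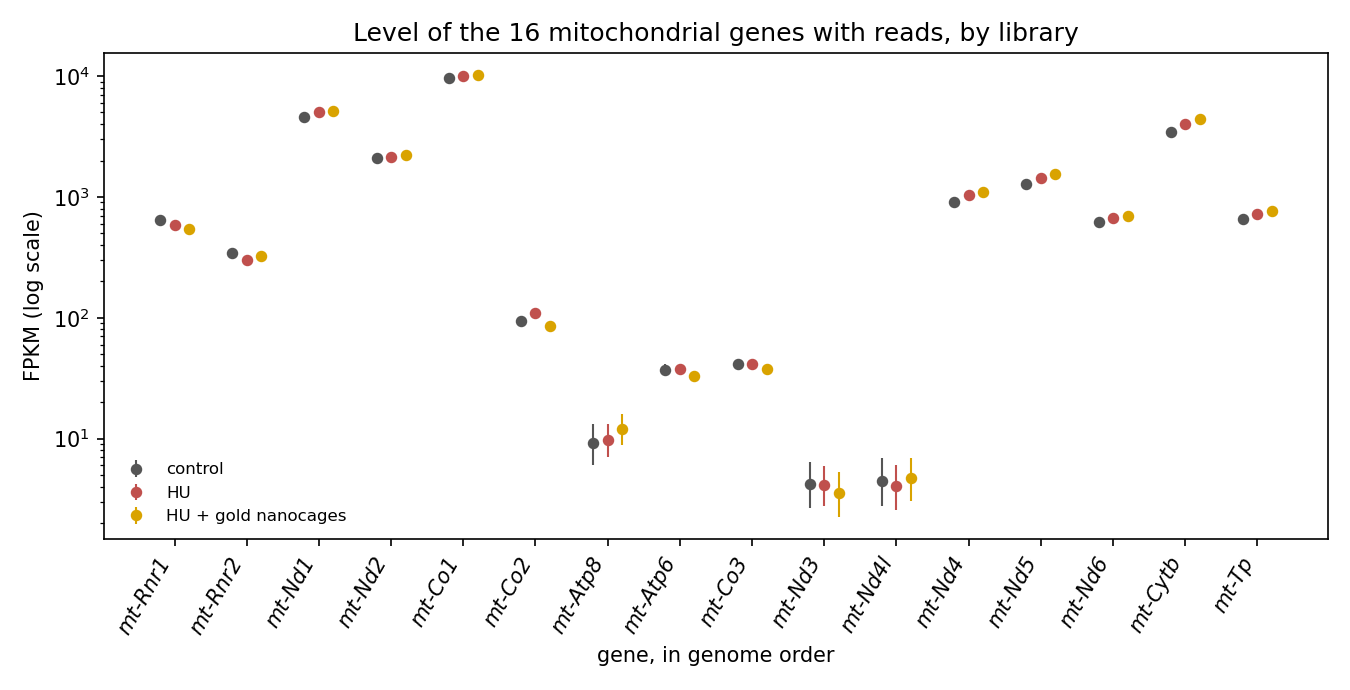
FPKM (log axis) of the 16 mitochondrial genes with reads, in genome order, with 1 point per library and exact 95% Poisson counting intervals. The genes from mt-Co2 to mt-Nd4l lie below 150 FPKM in all 3 libraries, between mt-Co1 at 9637 FPKM or more and mt-Nd4 at 905.5 FPKM or more.

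The low block matches a stretch of chromosome 1 that carries a nuclear copy of mitochondrial DNA. Each member was cut into overlapping windows of 100 bases, and windows were sought letter for letter in all nuclear transcripts of GENCODE M21, on both strands. Such windows made up 99.5% of mt-Co2, 99.5% of mt-Atp6, 99.9% of mt-Co3, 97.6% of mt-Nd3 and 98.5% of mt-Nd4l. They made up 60.8% of mt-Nd4, 30.8% of mt-Co1 and 3.19% of mt-Nd2, and 0% of mt-Nd1, mt-Nd5, mt-Nd6, mt-Cytb, mt-Rnr1 and mt-Rnr2. Thus 5 of the 6 low genes were shared nearly throughout, and all genes with 0% except mt-Atp8 were above 300 FPKM.

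On chromosome 1, 7 unprocessed pseudogenes in a row match mt-Co1 (its last 492 bases), mt-Co2, mt-Atp6, mt-Co3, mt-Nd3, mt-Nd4l and mt-Nd4 (its first 876 bases). They span chr1:24611535-24616197 on the minus strand, 4663 bases against 4662 bases of the mitochondrial genome. Gm28661 is identical to mt-Co2 over 681 bases, Gm10925 to mt-Atp6 over 678, Gm28437 to mt-Co3 over 783, Gm10222 to mt-Nd4l over 294 and Gm28439 to mt-Nd4 over 876. mt-Atp8 has no annotated copy in that row, and its share of windows in annotated nuclear transcripts is 0%. On chromosome M most of mt-Atp8 lies between the parts of mt-Co2 and mt-Atp6 that have copies. That gap is 233 bases on chromosome 1 and 233 on chromosome M. The sequence of that gap was not used here.

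The first 60 bases of mt-Nd3 (chrM:9459-9518, plus strand) and of its copy Gm28438 (chr1:24613060-24613119, minus strand) are printed because they hold the only difference between that pair. Both are from GENCODE M21 transcripts, written 5′ to 3′, with the differing base in capitals.
mt-Nd3: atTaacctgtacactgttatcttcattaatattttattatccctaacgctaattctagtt
Gm28438: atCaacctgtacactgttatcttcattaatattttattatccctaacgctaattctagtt
Over 345 aligned bases 344 are identical. The difference is T3C, counted from the first base of mt-Nd3, with the mitochondrial base first.

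A read that fits both places can be dropped, split or placed in either, and no source used here says how such reads were counted. The copies of mt-Co2, mt-Atp6, mt-Co3, mt-Nd3 and mt-Nd4l together held 1268 counts in control, 1823 in HU and 1429 in HU+GNC, against 1884, 2710 and 2112 for these 5 genes. Gm10925, with 501, 708 and 588 counts, exceeded mt-Atp6, with 380, 512 and 418, and Gm28438 exceeded mt-Nd3 in each library. All 7 copies summed to 1567, 2208 and 1806 counts. Levels of mt-Co2, mt-Atp6, mt-Co3, mt-Nd3 and mt-Nd4l, and in part those of mt-Nd4 and mt-Co1, are therefore uncertain, and their order against the other members may not be that of RNA abundance. The same holds for mt-Atp8, which shares 43 bases with mt-Atp6. How far the copies account for the low counts was not tested.

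**Figure D2:**
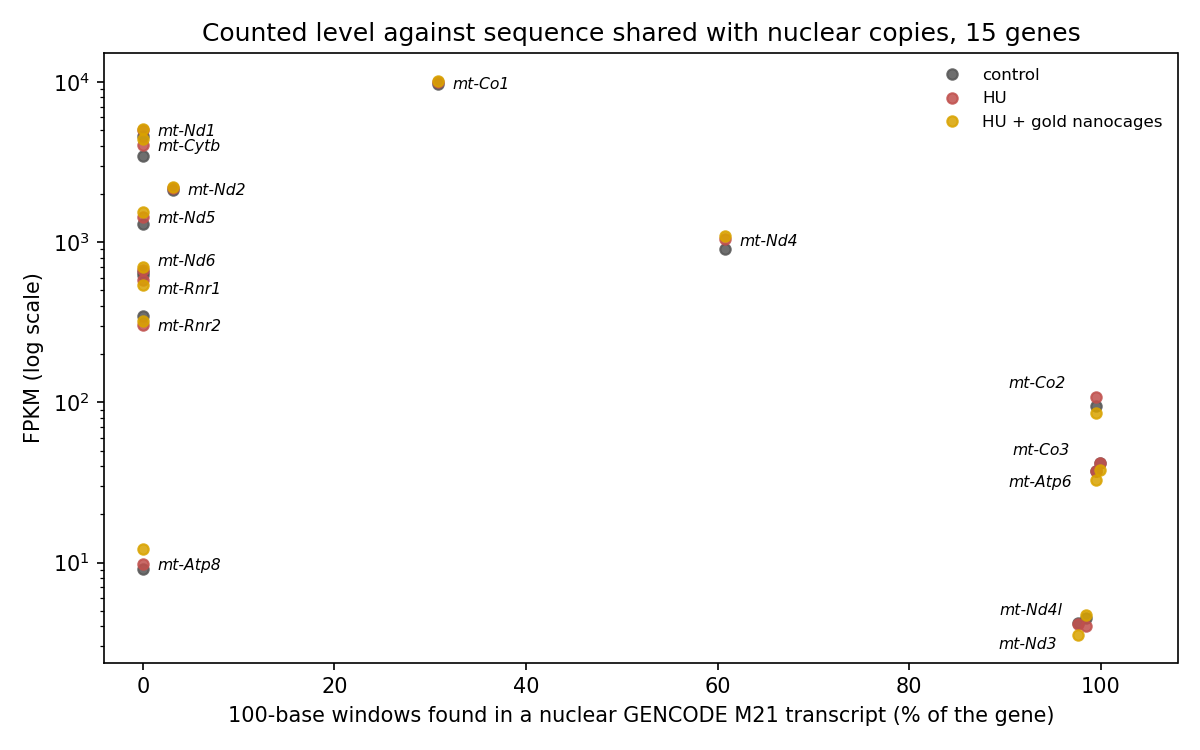
FPKM (log axis) of the 15 protein and rRNA genes against the percentage of their 100-base windows found in a nuclear GENCODE M21 transcript, with 1 point per gene and library. The 5 genes at 97.6% to 99.9% lie below 150 FPKM, while mt-Nd4 at 60.8% and mt-Co1 at 30.8% lie above 500 FPKM, and mt-Atp8 is low at 0%.

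The mitochondrial genes together took a slightly larger share of the library with HU and a larger one again with nanocages. Their share was 3.07% of counts in control (3.06 to 3.08), 3.26% in HU (3.26 to 3.27) and 3.38% in HU+GNC (3.37 to 3.39). The ratio was 1.06 for HU to control (1.059 to 1.067), 1.035 for HU+GNC to HU (1.032 to 1.039) and 1.10 for HU+GNC to control (1.096 to 1.104). Intervals of the 3 shares do not overlap, but without a repeated culture the size of ordinary variation in this share is unknown. mt-Co1 alone held 48.5%, 47.0% and 46.5% of all mitochondrial counts.

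Protein and rRNA genes differed in direction. Protein genes held 2.95% of library counts in control, 3.15% in HU and 3.27% in HU+GNC. The rRNA genes held 0.117%, 0.104% and 0.103%, with a ratio of 0.888 for HU to control (0.870 to 0.906) and of 0.991 for HU+GNC to HU (0.972 to 1.011), the latter within counting error. Inside the mitochondrial genome, where library size cancels, there were 3.96 rRNA reads per 100 protein reads in control (3.90 to 4.02), 3.29 in HU (3.24 to 3.33) and 3.14 in HU+GNC (3.10 to 3.19). The control library was highest in this measure and the library with nanocages lowest, with no overlap of the intervals. How RNA was selected before sequencing, by poly(A) capture or rRNA removal, is not given here. The part of that step in the rRNA reads was not tested.

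Nuclear ribosomal RNA genes, mostly Rn18s-rs5, held 226.0 CPM in control, 184.3 in HU and 406.5 in HU+GNC. Nuclear rRNA was thus lowest in HU and highest with nanocages, whereas mitochondrial rRNA was at 1167, 1036 and 1027 CPM. Their part in the mitochondrial rRNA result was not tested.

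Of the respiratory complexes, complex III, which is mt-Cytb alone, had the highest ratios between libraries. Its share was 0.396% in control, 0.463% in HU and 0.501% in HU+GNC. The 7 complex I genes held 1.051%, 1.143% and 1.188% of counts. The 3 complex IV genes held 1.499%, 1.546% and 1.578%, nearly all from mt-Co1. The 2 complex V genes held 0.00272%, 0.00275% and 0.00249%, where every interval overlapped the others, on 408, 552 and 464 reads. Complexes I, III and IV were ordered control, HU, HU+GNC without overlap.

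**Figure D3:**
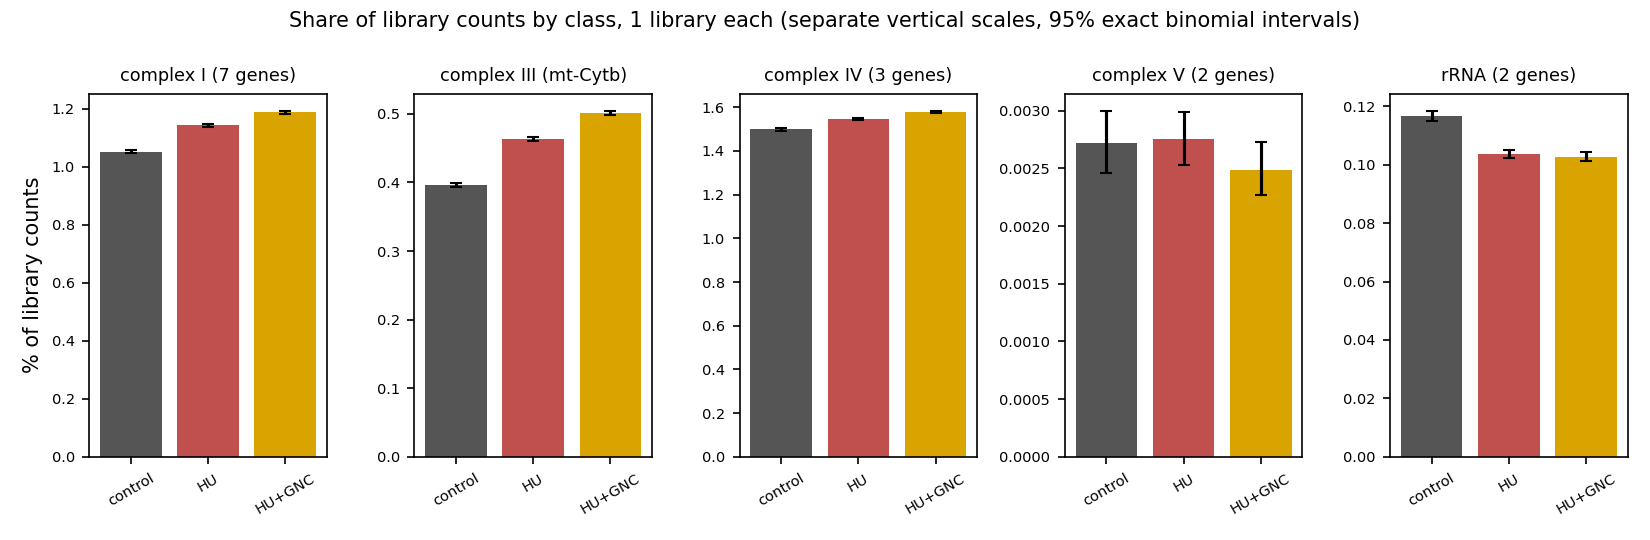
Share of library counts (%, separate vertical scales starting at 0) of the mitochondrial genes of each respiratory complex and of the rRNA genes, 1 bar per library with exact 95% binomial intervals. Complex III goes from 0.396% in control to 0.501% with HU and nanocages, while rRNA goes from 0.117% to 0.103%.

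By strand, 28 genes are annotated on the plus strand (12 protein, 2 rRNA and 14 tRNA) and 9 on the minus strand (mt-Nd6 and 8 tRNA). Minus-strand genes held 366.0 CPM in control, 393.6 in HU and 415.0 in HU+GNC. Plus-strand genes held 30330, 32235 and 33359 CPM. The ratio of HU to control was 1.08 for the minus strand (1.04 to 1.11) and 1.06 for the plus strand (1.059 to 1.067), and the intervals overlapped. Those of HU+GNC to HU, 1.05 (1.02 to 1.09) and 1.035 (1.031 to 1.038), overlapped too.

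mt-Nd6 stood at 1.105 reads per 100 reads of the other protein genes in control, 1.108 in HU and 1.125 in HU+GNC, with overlapping intervals. mt-Tp stood at 13.5, 13.9 and 14.1 reads per 100 mt-Nd6 reads, again with overlapping intervals. No difference between strands was resolved at this depth. Since the strand setting is unknown, reads over mt-Nd6 may come from either strand.

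The first comparison is of HU with control. By CPM ratio, 8 of the 15 protein and rRNA genes were above counting error in HU and 2 were below it, which means that the interval of the ratio excluded 1. For comparison, 18.6% of the 10842 genes that averaged 1 FPKM or more lay above and 20.1% below. Among 610 of these with a mean count of at least 5000, 28% were above and 34.9% below. Members ranged from 20 reads (mt-Nd4l) to 223190 (mt-Co1) in control, and intervals narrow with reads. Neither share is therefore matched to the members in depth, here or in the comparisons below. No protein or rRNA gene was at least 25% higher or 20% lower. Of the 10842 genes 10.3% were that much higher and 8.96% lower, and of the 610 deeply counted ones 2.13% and 2.3%.

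mt-Cytb had the highest ratio, at 3964 CPM in control and 4633 in HU, 1.17-fold higher (1.157 to 1.181). mt-Nd4 was 1.15-fold higher (1.125 to 1.168), mt-Nd5 1.11-fold (1.094 to 1.124), mt-Nd1 1.09-fold (1.083 to 1.105) and mt-Nd6 1.07-fold (1.033 to 1.112). mt-Co1 was 1.03-fold higher (1.025 to 1.036) and mt-Nd2 1.02-fold (1.007 to 1.036). All 7 protein genes above 500 FPKM were thus higher in HU, with intervals that separate mt-Cytb from mt-Nd2 and mt-Co1.

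mt-Co2 was the 8th gene above counting error, with 971 reads in control and 1491 in HU and a ratio of 1.15 (1.058 to 1.246). The ratios of the other 5 low genes were from 0.897 (mt-Nd4l) to 1.07 (mt-Atp8), all within counting error. Both rRNA genes were lower in HU. mt-Rnr1 had a ratio of 0.897 (0.873 to 0.922), on 9292 and 11154 reads, and mt-Rnr2 one of 0.878 (0.852 to 0.904), on 8201 and 9630 reads. On the scale of log2 FPKM with a pseudocount of 1 FPKM, the 13 protein genes had a median ratio of 0.085 and all 10842 genes one of -0.008. It was 0.130 over the 7 well counted protein genes and 0.002 over the 6 low ones.

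HU+GNC against HU addresses what the nanocages add. Here 8 of 15 genes were above and 2 below counting error, beside 8.32% and 7.8% of 10886 genes that averaged 1 FPKM or more, and 19% and 23.9% of the 715 with a mean count of at least 5000. The 7 protein genes above 500 FPKM were all higher with nanocages, by 1.02-fold (mt-Nd1, 1.010 to 1.028) to 1.08-fold (mt-Cytb, 1.072 to 1.092). mt-Nd5 was 1.08-fold higher (1.066 to 1.092) and mt-Nd4 1.05-fold (1.037 to 1.072).

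The rRNA genes parted in this comparison. mt-Rnr1 was lower with nanocages, with a ratio of 0.925 (0.900 to 0.951), at 9594 against 11154 reads, while mt-Rnr2 was 1.07-fold higher (1.038 to 1.098), at 9555 against 9630 reads. mt-Co2, 1.15-fold higher in HU than in control, had a ratio of 0.787 (0.727 to 0.852), on 1091 against 1491 reads. It was the 1 gene of the 15 at least 20% lower, and none was at least 25% higher. Of the 10886 genes 3.41% were that much lower and 3.87% higher, and of the 715 deeply counted ones 0% and 0.28%. The part of its copy Gm28661, at 246, 360 and 321 reads, was not tested. The other 5 low genes were within counting error, with mt-Atp6 closest to the edge at 0.878 (0.770 to 1.001), and below counting error with TMM or DESeq2 scaling. The 13 protein genes had a median log2 FPKM ratio of 0.034, beside 0.004 for all 10886 genes. It was 0.074 over the 7 well counted ones and -0.156 over the 6 low ones.

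In HU+GNC against control, 7 of 15 genes were above and 3 below counting error, beside 19.5% and 20.1% of 10849 genes and 29% and 39.4% of the 573 deeply counted ones. It shares a library with each of the other comparisons, so it is no separate evidence. HU against control and HU+GNC against HU share the HU library, so they are not separate either. A high value there raises the first ratio and lowers the second. mt-Cytb was 1.26-fold higher (1.251 to 1.277), mt-Nd4 1.21-fold (1.186 to 1.231) and mt-Nd5 1.20-fold (1.181 to 1.213). Ratios below 1 were those of mt-Rnr1 at 0.830 (0.807 to 0.854), mt-Rnr2 at 0.937 (0.909 to 0.965) and mt-Co2 at 0.903 (0.828 to 0.986), among the genes outside counting error. At least 25% higher were mt-Cytb and mt-Atp8, the latter within counting error at 1.32 (0.808 to 2.195) on 28 and 46 reads, and none was 20% lower. Of the 10849 genes 10.7% were that much higher and 8.76% lower, and of the 573 deeply counted ones 2.27% and 3.14%. The median log2 FPKM ratio was 0.076 over the 13 protein genes, 0.174 over the 7 well counted and -0.141 over the 6 low ones, beside -0.005 for all 10849 genes.

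**Figure D4:**
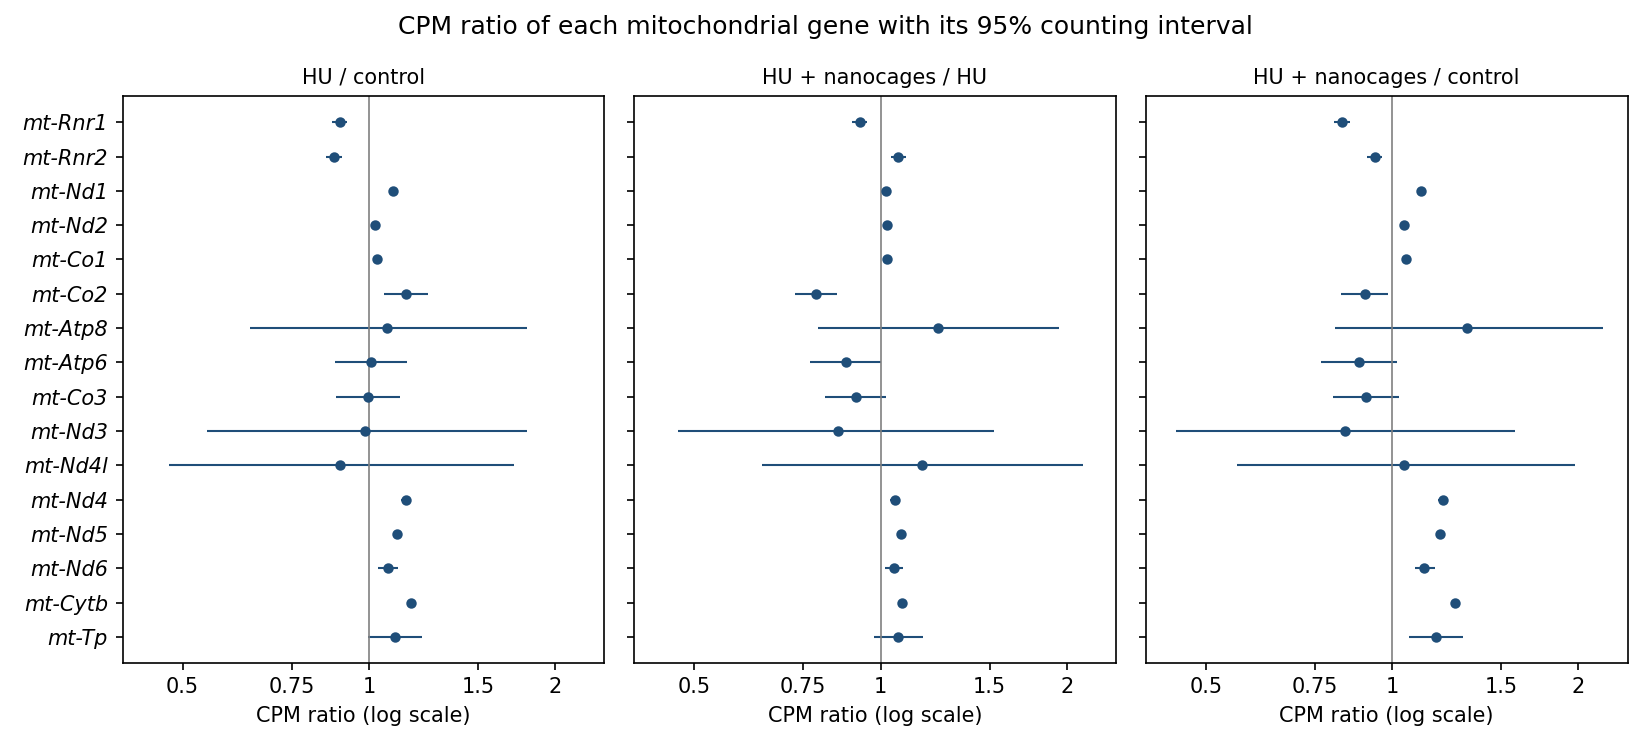
CPM ratio (log axis) of the 16 genes with reads in the 3 comparisons, with exact 95% counting intervals and a line at 1. The 7 protein genes above 500 FPKM lie to the right of the line in each comparison, with mt-Cytb at 1.17, 1.08 and 1.26, and mt-Rnr1 lies to the left.

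Among the well counted genes, ratios tended to be higher for those farther along the heavy-strand precursor, with exceptions given below. This set leaves out the low block and was picked with the levels known. It includes both rRNA genes, which lie at the start. Over the 8 plus-strand genes above 300 FPKM, the log2 CPM ratio of HU to control had a Spearman correlation of 0.881 and a Pearson correlation of 0.844 with distance from the start of mt-Rnr1. Over the 6 protein genes among them the values were 0.771 and 0.786, and the order was broken by mt-Nd1, closest to the start of these 6, with a higher ratio than mt-Nd2 and mt-Co1, and by mt-Nd4, with a higher one than mt-Nd5. Over all 15 genes, which adds the low block and mt-Nd6, they were 0.446 and 0.541.

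When nanocages were added to HU, the Spearman and Pearson values over the 6 protein genes were 0.943 and 0.975, over the 8 genes 0.738 and 0.686, and over all 15 genes 0.336 and 0.179. Over the 8 genes the order was broken by mt-Rnr2, near the start, with a log2 ratio of 0.094. Farther along, mt-Nd1, mt-Nd2, mt-Co1 and mt-Nd4 were lower, from 0.027 (mt-Nd1) to 0.076 (mt-Nd4). All points come from the same libraries and share their depth, so the correlations describe the libraries and carry no p-value. mt-Cytb and mt-Nd2 were chosen as a pair for having the highest and lowest HU to control ratios of the 7 well counted protein genes, so their read ratio restates those values within each library and adds no support. There were 1.81 mt-Cytb reads per mt-Nd2 read in control (1.78 to 1.83), 2.07 in HU (2.04 to 2.09) and 2.18 in HU+GNC (2.16 to 2.21). Windows shared with nuclear copies were 60.8% for mt-Nd4, 30.8% for mt-Co1, 3.19% for mt-Nd2 and 0% for mt-Cytb, mt-Nd1 and mt-Nd5. The part of this shared sequence in these values was not tested.

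**Figure D5:**
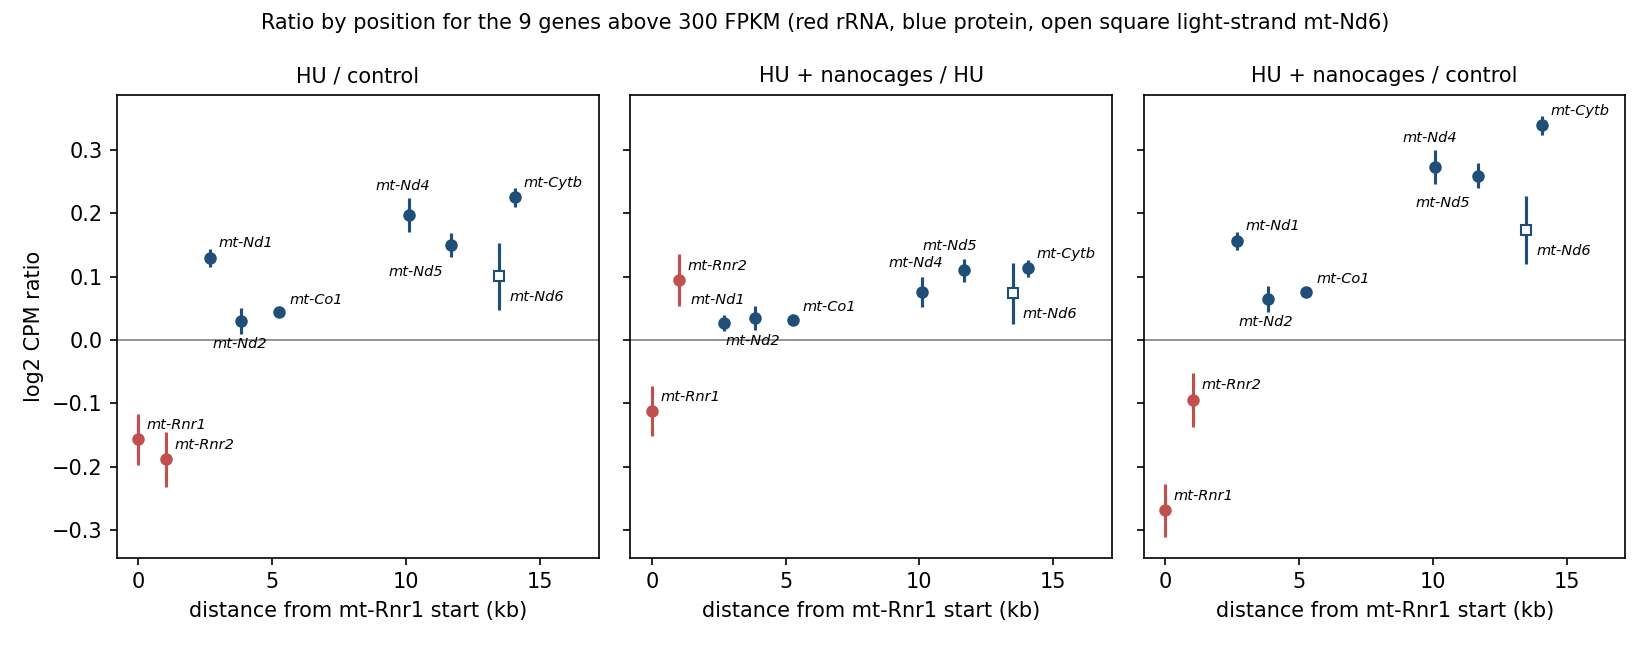
Log2 CPM ratio against distance (kb) of the gene start from the start of mt-Rnr1, for the 9 genes above 300 FPKM, 1 panel per comparison, with 95% counting intervals. In HU against control the genes mt-Nd4, mt-Nd5 and mt-Cytb lie highest and the rRNA genes below 0, and mt-Nd6 (open square) is on the other strand.

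Nuclear genes of the machinery that copies, transcribes and translates this genome were taken from lists, and those that averaged 1 FPKM or more were counted. The counts below are to be read against all such genes, of which 18.6% were above and 20.1% below counting error in HU against control. Of 10 measured genes of its replication and maintenance, 2 were above and 0 below in that comparison, the former near the share of all genes. They were Top1mt, the mitochondrial topoisomerase, at 1.16-fold (1.029 to 1.303) and the exonuclease gene Mgme1 at 1.12-fold (1.001 to 1.254). Polg, the catalytic subunit of the mitochondrial DNA polymerase, was at 8.90, 9.08 and 9.38 FPKM, with a ratio of 1.02 (0.953 to 1.093). Its partner gene Polg2, at 1.76, 1.43 and 1.35 FPKM, had a ratio of 0.812 (0.626 to 1.056), and Peo1, an earlier symbol of the helicase gene Twnk, one of 0.927 (0.849 to 1.012). All 3 were within counting error.

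Of 9 measured transcription genes, 0 were above and 2 below counting error in HU against control, where 20.1% of all genes were below. Polrmt was at 14.5, 12.9 and 12.9 FPKM, 1.12-fold lower in HU (ratio 0.889, 0.817 to 0.967). Tfb1m, which encodes the rRNA dimethyltransferase, had a ratio of 0.851 (0.726 to 0.999). Tfam was at 15.5, 14.8 and 15.9 FPKM, Tefm, an elongation factor gene, at 7.65, 6.51 and 6.80, and Mterf1b, a termination factor gene, at 1.76, 1.28 and 1.53, all within counting error. The list median was -0.137 on the log2 FPKM scale in HU against control, 0.033 in HU+GNC against HU and -0.041 in HU+GNC against control, and in the first of these 7 of the 9 genes were within counting error.

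Of 21 genes of RNA processing, stability and decay, 1 was above and 5 below counting error in HU against control, beside 18.6% and 20.1% of all genes. Fastkd1, a FASTK family RNA-binding protein gene, had the lowest ratio, at 0.695 (0.617 to 0.782). The ratio of Ptcd2, a pentatricopeptide repeat protein gene, was 0.834 (0.762 to 0.913), that of the poly(A) polymerase gene Mtpap 0.896 (0.812 to 0.989) and that of Fastkd5 1.137 (0.953 to 1.359), the last within counting error. Lrpprc was at 22.4, 20.6 and 20.3 FPKM, with a ratio of 0.919 in HU (0.875 to 0.966). Slirp was at 5.14, 5.56 and 6.07 FPKM and within counting error. With nanocages against HU, 2 of the 21 were above and 0 below, beside 8.32% and 7.8% of all genes.

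Of 14 genes of mitochondrial nucleotide supply, 3 were above and 4 below counting error in HU against control, with 18.6% and 20.1% for all genes. Tk2, the mitochondrial thymidine kinase, was at 6.45, 4.84 and 4.58 FPKM, with a ratio of 0.751 (0.623 to 0.904). Tymp, which breaks down thymidine, was at 6.39, 9.30 and 9.85 FPKM, with a ratio of 1.46 (1.222 to 1.740). Rrm2b, the ribonucleotide reductase subunit that serves mitochondrial DNA in resting cells, was at 3.32, 3.44 and 3.84 FPKM and within counting error in HU. The large subunit gene Rrm1, at 112.5, 110.9 and 108.5 FPKM, was within it too. The small subunit gene Rrm2, at 113.2, 141.5 and 140.3 FPKM, had a ratio of 1.251 (1.206 to 1.297), and the dCTP pyrophosphatase gene Dctpp1 one of 1.19 (1.079 to 1.313).

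Among 10 measured regulators of mitochondrial biogenesis, 4 were above and 3 below counting error in HU against control, set against 18.6% and 20.1% of all genes. Esrra, an orphan nuclear receptor gene, was at 19.99, 30.7 and 28.5 FPKM, with a ratio of 1.54 (1.408 to 1.677). Pprc1, a PGC-1 related coactivator gene, had a ratio of 1.22 (1.161 to 1.275), and Gabpb1, which encodes a subunit of the NRF-2 factor, one of 1.23 (1.118 to 1.355). Tfe3, a transcription factor gene of lysosome and mitochondrial programmes, had a ratio of 0.879 (0.833 to 0.927).

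Of 77 mitochondrial ribosomal protein genes, 4 were above and 11 below, of 21 mitochondrial tRNA synthetase and related genes 1 and 4, and of 17 RNA modification genes 1 and 2, in HU against control, where all genes had 18.6% above and 20.1% below. Mrpl43, a large subunit protein gene of the mitochondrial ribosome, was at 57.6, 47.1 and 48.8 FPKM, with a ratio of 0.819 (0.752 to 0.891). Mrpl1 had a ratio of 0.798 (0.708 to 0.900) and Mrpl23 one of 0.790 (0.645 to 0.968), while that of Mrpl53, 1.58 (0.866 to 3.005), was within counting error. Lars2, the leucyl-tRNA synthetase gene, was lowest with HU alone, at 32.6, 26.6 and 33.5 FPKM, with a ratio of 0.816 (0.766 to 0.869). Mars2, the methionyl-tRNA synthetase gene, was higher in HU, with a ratio of 1.33 (1.193 to 1.477), while Mtfmt of the same list was lower, at 0.814 (0.740 to 0.895). The pseudouridine synthase gene Pus1, the 1 modification gene above counting error, had a ratio of 1.19 (1.109 to 1.268). Mettl15 of that list had one of 0.725 (0.507 to 1.036), within counting error.

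Nuclear genes for subunits of the same complexes are given for comparison, again beside 18.6% above and 20.1% below of all genes in HU against control. Of 12 for complex IV, 7 were above and 0 below counting error, among them Cox7c at 1.20 (1.027 to 1.413) and Cox8a at 1.09 (1.050 to 1.135). Of 15 for complex V, 6 were above and 1 below, with Atp5l at 1.21 (1.054 to 1.397). Of 37 for complex I, 6 were above and 3 below, with Ndufa2 at 1.15 (1.031 to 1.283), and of 9 for complex III none was outside it. The subunit genes named here were all higher in HU, and others were lower. Single log2 FPKM ratios ran from -0.277 to 0.198 for complex I and from -0.206 to 0.272 for complex V. They ran from -0.080 to 0.252 for complex IV and from -0.072 to 0.113 for complex III. In HU against control the median log2 FPKM ratio was 0.035 for 37 nuclear complex I genes, -0.015 for 9 of complex III, 0.105 for 12 of complex IV and 0.040 for 15 of complex V. With nanocages against HU these medians were -0.028, -0.008, -0.058 and -0.024. The HU library is part of both sets of medians. In HU+GNC against control the medians were -0.021, -0.005, 0.039 and 0.002. Of the 12 for complex IV, 2 were then above and 1 below counting error, beside 19.5% and 20.1% of all genes. For HU+GNC against HU the mitochondrial protein genes had 0.034 over all 13, 0.074 over the 7 well counted and -0.156 over the 6 low ones. That split was made after the values were known. No test of nuclear against mitochondrial medians was possible with 1 library per condition.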

How the data were processed

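RNA of RAW 264.7 cells was measured in 3 libraries, 1 per condition, sequenced as pairs of 150-base reads. The authors deposited 1 table of read counts, whole and not normalized. The deposited FPKM values were recomputed from the counts, the table's gene sizes in bases and the library totals, and matched within 0.006 FPKM for 100% of genes in each library. Software named in the submitters' processing notes was HISAT2 2.0.1, HTSeq 0.6.1, SAMtools 0.1.18, bcl2fastq 2.17.1.14, DESeq and cutadapt, and the build was mm10. What each was used for, the annotation release, the strand setting and the treatment of reads that fit several places are not stated there.

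CPM used summed gene counts. CPM ratios have exact (Clopper-Pearson) 95% intervals, shares exact binomial and levels exact Poisson ones. PCR reads without molecular identifiers are not independent molecules. The interval code was tested on simulated data. For 0 reads the limit was 3 counts. Alternative scalings were edgeR 4.0.16 TMM and DESeq2 1.42.0 size factors, with no test. A symbol with several identifiers was represented by the one with the most reads. Nuclear copies were aligned with Biopython 1.88 to GENCODE M21 transcripts. No symbol is given for 4 genes.

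Every member with reads was described. Of each nuclear list, the naming rule took up to 4 genes with the largest absolute log2 ratio in HU against control, and Rrm1, Rrm2, Rrm2b, Tfam, Polrmt, Twnk, Polg, Lrpprc and Slirp. Some genes the rule took are not printed, chiefly nuclear subunits of the respiratory complexes. The members and lists were chosen with earlier results of these data known.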

Additional observations from a re-analysis of the deposited data

How the results depend on the processing

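The counts of genes above counting error in each comparison, and of those below it in the comparisons with control, were equal under TMM, DESeq2 size factors and scaling to nuclear counts alone, and the 7 protein genes above 500 FPKM stayed above counting error in all 3 comparisons under these scalings. For HU+GNC against HU, 3 in place of 2 genes were below it with TMM or DESeq2 size factors, the added gene being mt-Atp6. Per 100 reads of nuclear genes there were 3.167 mitochondrial reads in control, 3.373 in HU and 3.495 in HU+GNC. Without the 2 mitochondrial rRNA genes the shares were 2.953%, 3.159% and 3.275%. The order of the libraries was the same in both.

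The median log2 ratio of the 13 protein genes depends on the 6 low ones. Without them, a setting chosen after seeing the data, the median was 0.130 for HU against control (0.085 with all), 0.074 for HU+GNC against HU (0.034 with all) and 0.174 against control (0.076 with all). With mean FPKM of at least 5, which leaves out mt-Nd3 and mt-Nd4l, the last was 0.156. Mean FPKM of the rRNA genes per 100 of that of the protein genes was 28.35, 23.5 and 22.1, in place of 3.958, 3.285 and 3.141 in reads, in the same order of libraries. No paired analysis was possible because each group is 1 library. With 20 to 46 reads, mt-Atp8, mt-Nd3 and mt-Nd4l could show only large differences.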

Other observations

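The pseudogenes on chromosome 1 differed among themselves. Gm28438, the copy of mt-Nd3, had 196 counts in control, 148 in HU and 103 in HU+GNC, and its CPM ratio of HU to control was 0.564 (0.453 to 0.702). mt-Nd3 itself had 22, 29 and 23, fewer than its copy in each library. Gm28437, the copy of mt-Co3, had 319, 583 and 386 counts, 1.37-fold higher in HU than in control (1.190 to 1.571), while mt-Co3 had 491, 654 and 554 and was within counting error. Gm10222, the copy of mt-Nd4l, had 6, 24 and 31 counts.

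Gm11808 was on the list of nuclear copies but shares 0 windows of 50 bases with any mitochondrial gene. It was at 189.3, 222.0 and 225.8 FPKM. In all, 15 annotated nuclear genes share at least 1 such window with a mitochondrial gene. A second row of pseudogenes on chromosome 2, with Gm13340 matching mt-Co1 at 97.6% identity over 1545 bases, had 5, 11 and 22 counts for that gene.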
